A study of Homo sapiens with 8 samples.

Results

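The transcripts described here encode the translation initiation factors (eIFs) and elongation factors (eEFs). They were chosen by name as the entries of the deposited FPKM table that begin with EIF or EEF and a digit and that name 1 gene. The rule found 65 of 13453 entries, and 63 of them passed the filter on low values, a mean FPKM of at least 1 over the 8 libraries. FPKM is the number of fragments scaled to transcript length and to the fragments mapped in a library. The 2 members that did not pass were EEF1DP3, a pseudogene listed at 0 in every library, and EIF1B-AS1, an antisense RNA with FPKM values of 0 to 0.248, and neither encodes a factor. The name also took in 4 Argonaute genes, which bind small RNAs and carried the symbols EIF2C1 to EIF2C4 in the annotation used. EIF1AY, on the Y chromosome, was counted among the tested members and their calls, but its levels are not given. It was left out of the spread between libraries, the figures and the search of transcript starts.

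Initiation begins when eIF2, bound to GTP and the initiator tRNA, joins the small ribosomal subunit together with eIF1, eIF1A, eIF3 and eIF5. The cap-binding protein eIF4E, the scaffold eIF4G and the helicase eIF4A, helped by eIF4B and eIF4H, bring this complex to the mRNA, and eIF5B then joins the large subunit. eIF2B reloads eIF2 with GTP, kinases that phosphorylate eIF2α block this step, and the 4E-BPs hold back eIF4E until mTORC1 phosphorylates them. eEF1A delivers aminoacyl-tRNA during elongation, eEF1B reloads eEF1A, eEF2 translocates the ribosome and eIF5A helps at slow peptide bonds.

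The libraries came from Jurkat, an established human line of T-cell acute lymphoblastic leukemia, and the study asked which transcripts differ when CBAP, an adaptor protein encoded by TMEM102, is lost. The shRNA set held 2 libraries of sh-Ctrl cells, which carry a non-targeting shRNA, and 2 of sh-CBAP cells, which carry an shRNA against CBAP. The CRISPR set held 2 libraries of CBAP-KO+GFP cells, knockout cells expressing GFP, and 2 of CBAP-reconstituted cells, the knockout cells given CBAP-GFP. Each library carries its own clone-like code in the labels, stable lines were selected with puromycin or grown from sorted single cells, and all 4 conditions share the Jurkat background. Both kinds of cells in the CRISPR set carry the knockout of the endogenous gene. The labels do not say that the libraries of a condition came from separate cultures, so the p-values measure only the spread between these libraries.

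TMEM102 had FPKM values of 4.07 and 4.74 in sh-Ctrl and of 2.69 and 2.89 in sh-CBAP cells, and was listed at 0 in the 4 libraries of the CRISPR set, whose labels could not be checked on it. Of 8 T-cell markers all were listed, with CD3D at 446 to 553 FPKM. CD79A, at 0.732 to 22.5 FPKM, was the only B-cell or myeloid marker listed of the 8 looked for. It differed within the CRISPR set, from 0.732 and 1.09 FPKM in CBAP-reconstituted to 9.60 and 9.91 in CBAP-KO+GFP cells (2.50 in log2, limma adjusted p = 0.000515), and had 13.0 to 22.5 in the shRNA set. Some T-cell markers moved with the conditions. In the CRISPR set CD28 changed by 3.32, CD7 by 1.71, CD3E by 0.91 and ZAP70 by 0.57 (log2). In the shRNA set LCK and ZAP70 went the other way, by -0.43 and -0.39 (limma adjusted p = 0.00669 and 0.0355). The part of these markers in the results below was not tested. In bulk RNA a change in the share of a kind of cell and a change in RNA per cell cannot be told apart. Over the 58 members above 0 in every library, with EIF1AY left out, the median difference between the 2 libraries of a condition was 0.114 (log2) in sh-Ctrl, 0.173 in sh-CBAP, 0.0313 in CBAP-reconstituted and 0.0603 in CBAP-KO+GFP cells. The libraries of the shRNA set were thus farther apart from each other than those of the CRISPR set. The main fit shared its estimate of the spread over all conditions. The p-values of the shRNA set therefore rest in part on the closer CRISPR libraries. The sequencing depth behind the values is unknown.

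In the CRISPR set, 34 of the 63 tested members passed the threshold, an adjusted p under 0.05 from limma, with the adjustment of Benjamini and Hochberg made over the whole table. Of these, 29 were lower and 5 higher in CBAP-KO+GFP than in CBAP-reconstituted cells. Over all 11427 tested genes 49.9% passed, 25.9% as lower and 23.9% as higher. The share of members that passed, 54%, was thus close to that of all genes, while 46% of the members were lower. The median log2 fold change was -0.23 over the members, with 47 of 63 below 0, and 0 over all tested genes. The FPKM of all entries summed to 431057 and 434742 in CBAP-reconstituted and to 383898 and 392806 in CBAP-KO+GFP cells. The part of this difference in the changes was not tested. With quantile normalization 24 members were called lower and 9 higher, and the members' median was -0.13. Of all 11427 tested genes 5796 passed in that fit, 2861 of them as lower, and their median was 0.0028. Among the named members this scaling ended the CRISPR calls of EEF2, EIF2C1, EIF2S1, EIF3E, EIF3H and EIF4B. Fitted on the 4 libraries of the CRISPR set alone, 46 members passed, or 73%, against 67.8% of all genes. Without CBAP-reconstituted library 1 or 2 fewer members were called, and fewer of all tested genes as well. The members called in each of the 8 fits that left out 1 library numbered 19, EEF1A1, EEF2, EIF2AK3, EIF2B1, EIF2B2, EIF2B3, EIF2C4, EIF2S2, EIF2S3, EIF3B, EIF3G, EIF3I, EIF3K, EIF4A3, EIF4E2, EIF4G2, EIF4G3, EIF5A and EIF6.

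In the shRNA set, 8 of the 63 members passed, or 12.7%, against 12.3% of all tested genes. EEF1G, EIF2AK4, EIF2B3, EIF4EBP1 and EIF5A were lower in sh-CBAP than in sh-Ctrl cells, and EIF4A2, EIF4E3 and EIF4G2 were higher. Of all tested genes 8.7% were called lower and 3.62% higher. The members' median was -0.02, beside -0.06 over all genes. Fitted on the 4 libraries of the shRNA set alone, only EEF1G and EIF4E3 passed, or 3.17%, against 0.656% of all genes. Fewer members, and fewer of all tested genes, were called without either CBAP-reconstituted library, either CBAP-KO+GFP library or sh-Ctrl library 2. Without sh-CBAP library 1 more members and more of all genes were called. EEF1G and EIF4E3 were again the members called in every fit that left out 1 library.

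**Figure D1:**
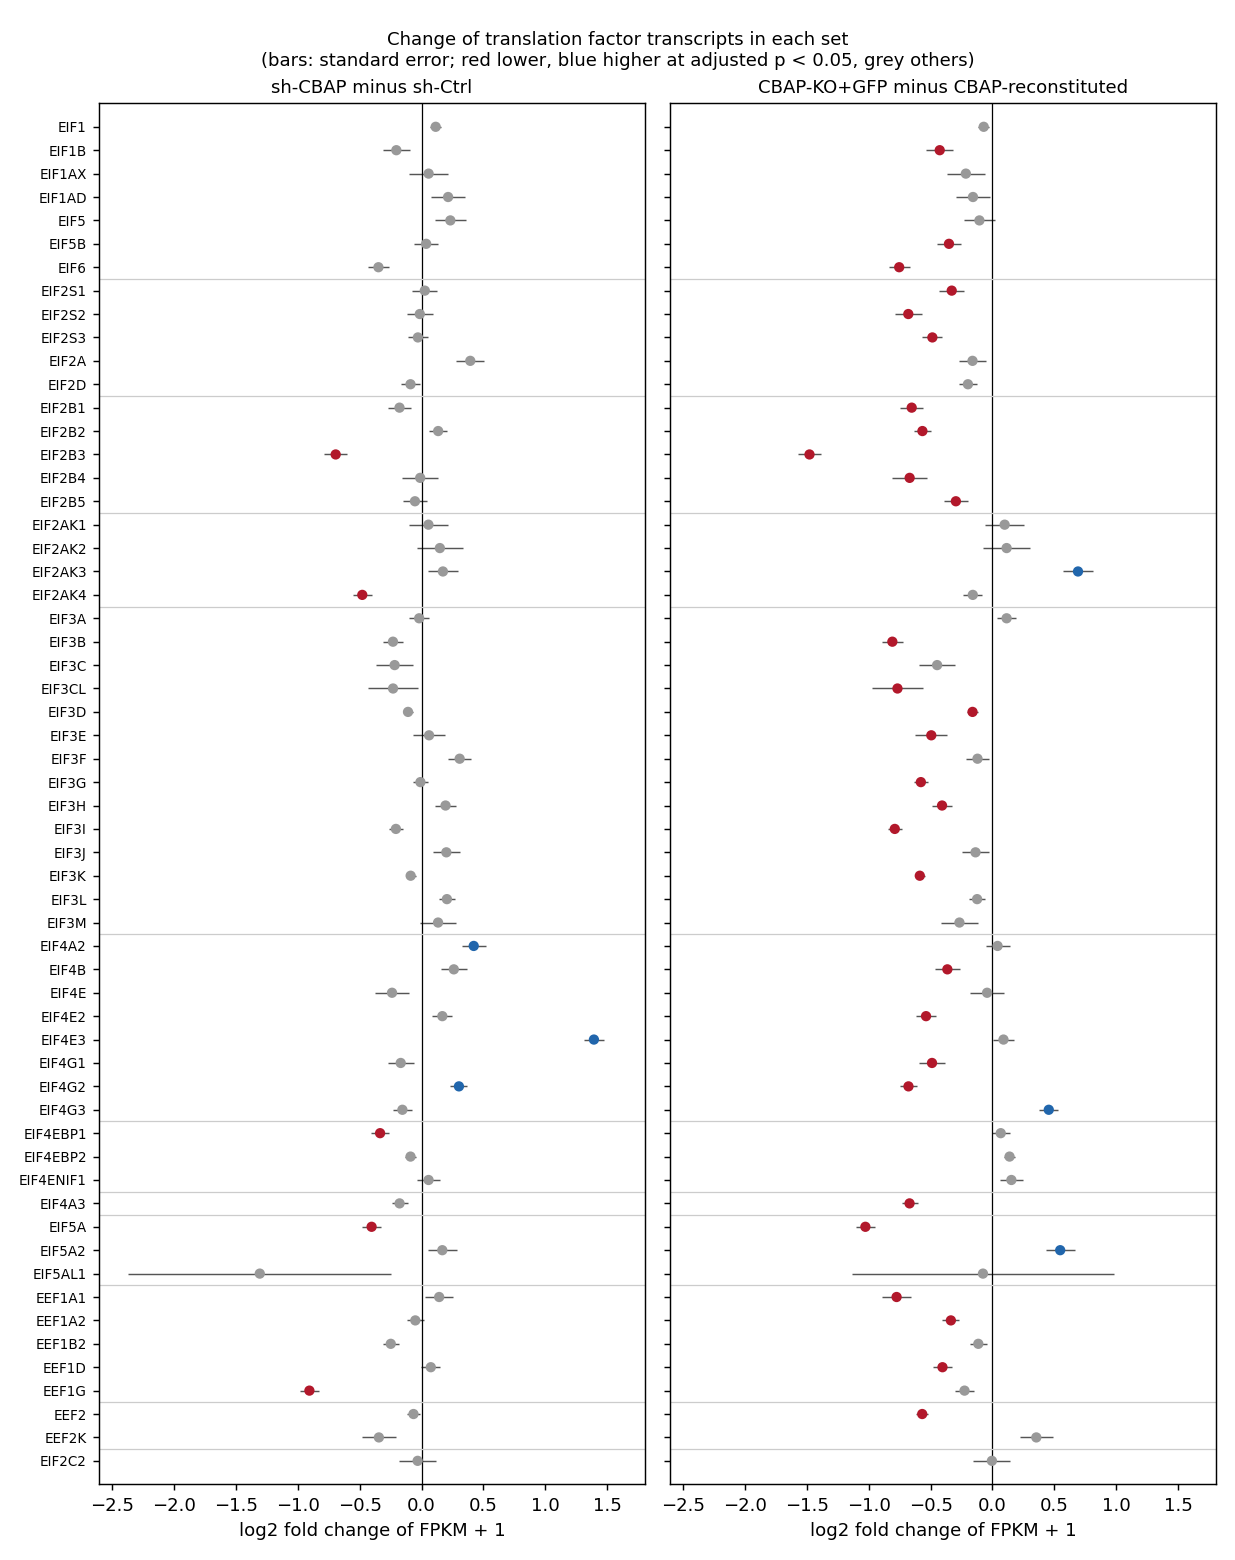
Log2 fold change of FPKM + 1 with its standard error (bars) for the 58 members above 0 in every library, grouped by complex between the grey lines, in the shRNA set (left) and the CRISPR set (right). Red and blue points passed as lower and higher, and all 5 eIF2B subunits lie on the lower side in the CRISPR set.

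EIF2B3 and EIF5A were called lower in both sets. EIF2B3, on chr1:45316194-45452394 (minus strand, GRCh37), encodes the γ subunit of eIF2B. It had FPKM values of 28.0 and 23.5 in sh-Ctrl, 15.2 and 15.8 in sh-CBAP, 25.6 and 25.8 in CBAP-reconstituted, and 8.33 and 8.87 in CBAP-KO+GFP cells. All 4 CBAP-deficient libraries were below all 4 CBAP-expressing ones. In log2 the change came to -0.69 (standard error 0.0914, limma adjusted p = 0.0124) in the shRNA set and -1.48 (adjusted p = 0.000167) in the CRISPR set, and the difference between the changes, shRNA minus CRISPR, was 0.78 (adjusted p = 0.00803). EIF5A, on chr17:7210318-7215782 (plus strand, GRCh37), had 452 and 502 FPKM in sh-Ctrl, 341 and 379.7 in sh-CBAP, 682 and 698 in CBAP-reconstituted, and 337 and 339 in CBAP-KO+GFP cells. Here too no CBAP-deficient library reached the lowest CBAP-expressing one. Its changes were -0.40 (standard error 0.0752, limma adjusted p = 0.0278) and -1.03 (adjusted p = 0.000295), and they differed by 0.62 (adjusted p = 0.00899, and 0.0502 without CBAP-reconstituted library 2), or by 0.38 with quantile normalization. Neither change in the shRNA set passed when its 4 libraries were fitted alone, and without a CBAP-reconstituted library their limma adjusted p rose to 0.0534 (EIF2B3, library 1) and 0.0848 (EIF5A, library 2).

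**Figure D2:**
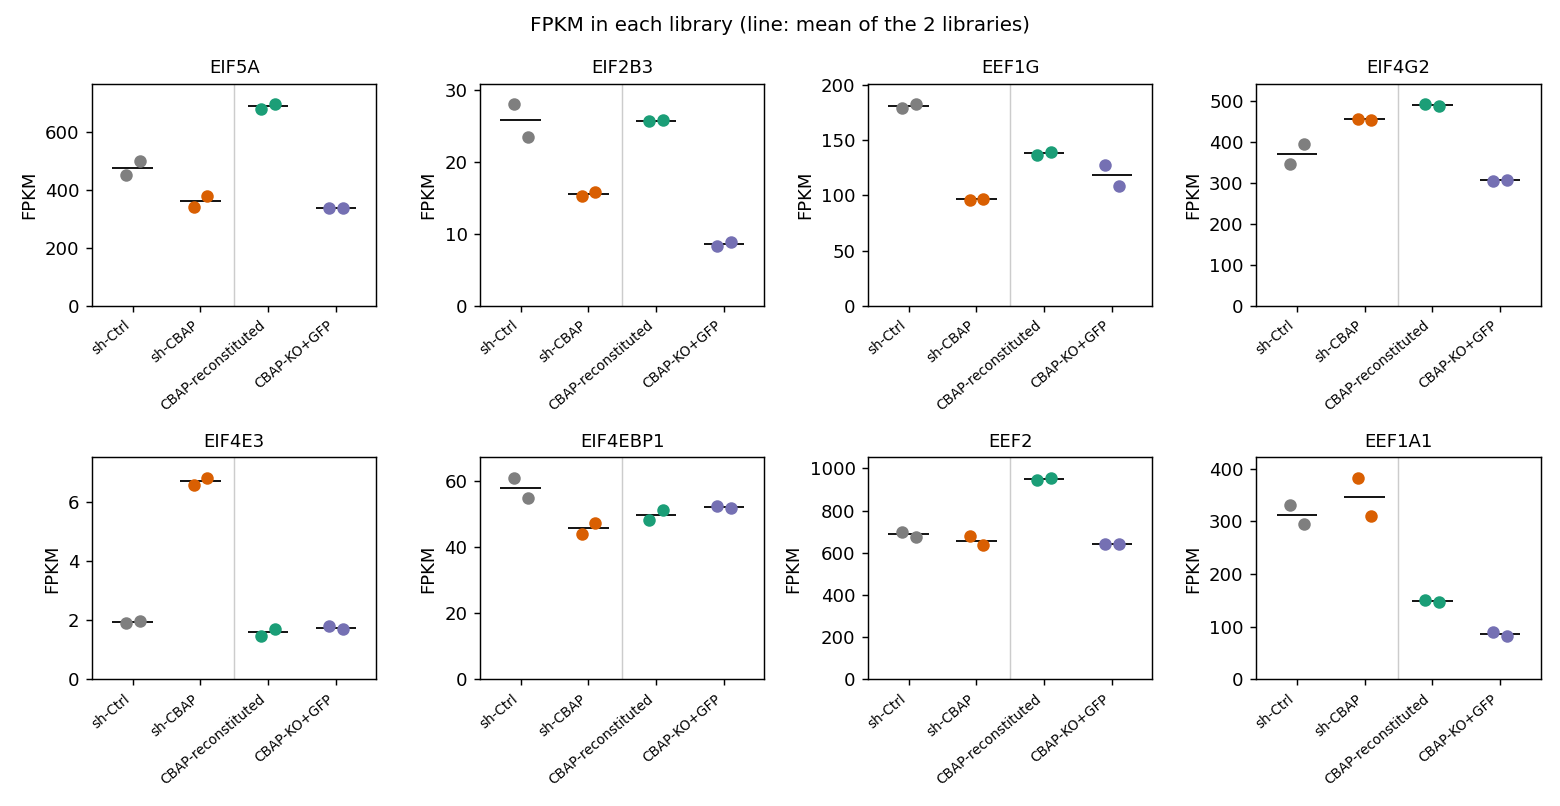
FPKM of 8 members in each library (points), with the mean of the 2 libraries of a condition (lines), the shRNA set on the left and the CRISPR set on the right of each panel. EIF5A and EIF2B3 are lower in CBAP-deficient cells in both sets, and EIF4E3 stands out in the sh-CBAP cells at 6.60 and 6.84.

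All 5 subunits of eIF2B were called lower in the CRISPR set, and EIF2B3 alone of the 5 in the shRNA set. EIF2B2 (β subunit) had 32.1 and 34.2 FPKM in CBAP-reconstituted and 21.3 and 22.9 in CBAP-KO+GFP cells, which is -0.57 in log2 (standard error 0.0717, limma adjusted p = 0.00184). In sh-Ctrl cells it had 31.2 and 33.1, and in sh-CBAP cells 33.9 and 36.9, and the difference between the changes was 0.70 (limma adjusted p = 0.00542). The libraries of the shRNA set did not overlap but lay in the other direction, without passing. EIF2B5, the catalytic ε subunit, had 36.1 and 36.8 FPKM in CBAP-reconstituted against 30.8 and 28.3 in CBAP-KO+GFP cells, a change of -0.30 (limma adjusted p = 0.048), and 29.7 and 29.7 in sh-Ctrl against 25.9 and 31.4 in sh-CBAP cells, which overlapped. The CRISPR call of EIF2B5 was lost in 6 of the 8 fits without 1 library, with a limma adjusted p of up to 0.195 without CBAP-KO+GFP library 2. EIF2B1 and EIF2B4 (α and δ) changed by -0.65 and -0.67 in the CRISPR set. The FPKM of the 5 subunits summed to 189 and 194 in CBAP-reconstituted and to 119 and 122 in CBAP-KO+GFP cells, and to 157 and 169 in sh-Ctrl and 139.9 and 158 in sh-CBAP cells.

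The 3 subunits of eIF2, which carries the initiator tRNA, were also called lower in the CRISPR set and none in the shRNA set. EIF2S1, the α subunit that the eIF2 kinases phosphorylate, had 52.6 and 53.5 FPKM in CBAP-reconstituted, 41.3 and 42.7 in CBAP-KO+GFP, 41.5 and 42.5 in sh-Ctrl, and 38.4 and 47.7 in sh-CBAP cells. In log2 it differed by -0.33 (standard error 0.101, limma adjusted p = 0.0394) in the CRISPR set and 0.03 (adjusted p = 0.897) in the shRNA set. The CRISPR call was lost in 6 of 8 fits without 1 library, with a limma adjusted p of up to 0.153 without CBAP-reconstituted library 2, and the change was -0.17 (adjusted p = 0.109) with quantile normalization. EIF2S2 (β subunit) had 61.1 and 59.8 FPKM in CBAP-reconstituted against 35 and 39.9 in CBAP-KO+GFP cells, and 56.5 and 48.6 in sh-Ctrl against 48.7 and 55.3 in sh-CBAP cells. Only the CRISPR libraries separated, with a change of -0.68 (limma adjusted p = 0.00396) that differed from that in the shRNA set by 0.67 (adjusted p = 0.0223, and 0.0872 without CBAP-reconstituted library 1). EIF2S3 (γ subunit) changed by -0.49 in the CRISPR set. EIF2A and EIF2D, separate proteins that can also deliver initiator tRNA, did not pass in either set.

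The 4 eIF2 kinases did not share a direction. EIF2AK4 (GCN2, which senses uncharged tRNA) had 22.1 and 21.6 FPKM in sh-Ctrl, 14.3 and 16.6 in sh-CBAP, 18.6 and 19.4 in CBAP-reconstituted, and 16.8 and 17.0 in CBAP-KO+GFP cells. In the shRNA set it fell by 0.48 on the log2 scale (standard error 0.0763, limma adjusted p = 0.02), and its change in the CRISPR set was -0.16 (adjusted p = 0.134). The shRNA call did not pass in 6 of 8 fits without 1 library (limma adjusted p of up to 0.0686 without sh-Ctrl library 1). EIF2AK3 (PERK, the kinase of the endoplasmic reticulum) had 4.04 and 3.77 in sh-Ctrl, 3.92 and 5.20 in sh-CBAP, 4.33 and 4.45 in CBAP-reconstituted, and 7.88 and 7.53 in CBAP-KO+GFP cells. It rose by 0.69 (log2, limma adjusted p = 0.00545) in the CRISPR set, and the difference from the shRNA set was -0.52 (adjusted p = 0.0621). EIF2AK1 and EIF2AK2, which respond to heme shortage and to double-stranded RNA, did not pass in either set.

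Of the 14 eIF3 entries, 8 were called lower in the CRISPR set and none in the shRNA set, where their changes ran from -0.23 to 0.31. In the CRISPR set the changes ran from -0.81 to 0.11. EIF3B had 106 and 125 FPKM in sh-Ctrl, 94.9 and 100.3 in sh-CBAP, 149.9 and 152 in CBAP-reconstituted, and 85.1 and 86.3 in CBAP-KO+GFP cells. EIF3I, a neighbour of EIF3B, had 194 and 211 in sh-Ctrl, 180.2 and 171 in sh-CBAP, 207 and 206 in CBAP-reconstituted, and 119 and 119 in CBAP-KO+GFP cells. For both, each CBAP-deficient library lay below each CBAP-expressing one. The log2 fold changes in the CRISPR set were -0.81 (standard error 0.0838, limma adjusted p = 0.000914) for EIF3B and -0.79 (standard error 0.057, limma adjusted p = 0.000279) for EIF3I, beside -0.23 (adjusted p = 0.134) and -0.21 (adjusted p = 0.0719) in the shRNA set. EIF3E had 280.4 and 235 FPKM in sh-Ctrl, 239 and 300.2 in sh-CBAP, 342 and 357 in CBAP-reconstituted, and 243 and 253 in CBAP-KO+GFP cells. It fell in the CRISPR set by 0.49 on the log2 scale (limma adjusted p = 0.0243), while its shRNA libraries overlapped. EIF3H had 249 and 234 in sh-Ctrl, 256 and 298 in sh-CBAP, 314 and 326 in CBAP-reconstituted, and 236 and 246 in CBAP-KO+GFP cells. Its changes, 0.19 and -0.41 (limma adjusted p = 0.188 and 0.01), differed by 0.60 (adjusted p = 0.0141, and 0.067 without CBAP-reconstituted library 2). Without that library the limma adjusted p in the CRISPR set was 0.117 for EIF3E and 0.0685 for EIF3H, and with quantile normalization their CRISPR changes were -0.24 (adjusted p = 0.117) and -0.13 (adjusted p = 0.0941). EIF3D, EIF3G and EIF3K also passed as lower in the CRISPR set, and EIF3A, the largest scaffold subunit, had a change of 0.11 (limma adjusted p = 0.275).

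EIF3C and its near-copy EIF3CL differed between the sets far more than within them. EIF3C had 128 and 136 FPKM in sh-Ctrl, 106 and 121 in sh-CBAP, 7.61 and 8.60 in CBAP-reconstituted, and 4.80 and 6.67 in CBAP-KO+GFP cells. EIF3CL had 107 and 115, 88.5 and 101, 1.91 and 1.85, and 0.358 and 1.11 in the same order. No other eIF3 subunit showed such a step between the sets. Of the distinct 100-base stretches of the EIF3C transcript, 97% are also found in EIF3CL transcripts in GENCODE release 44 lifted to GRCh37, so both values depend on how shared reads were assigned, and the part of this in the step was not tested. The call of EIF3CL in the CRISPR set, -0.77 (standard error 0.205, limma adjusted p = 0.025, and 0.109 without CBAP-reconstituted library 1), is therefore uncertain. Without these entries the FPKM of the other 12 subunits summed to 1824 and 1798 in sh-Ctrl, 1780 and 1953 in sh-CBAP, 2150.3 and 2217 in CBAP-reconstituted, and 1661 and 1639 in CBAP-KO+GFP cells.

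**Figure D3:**
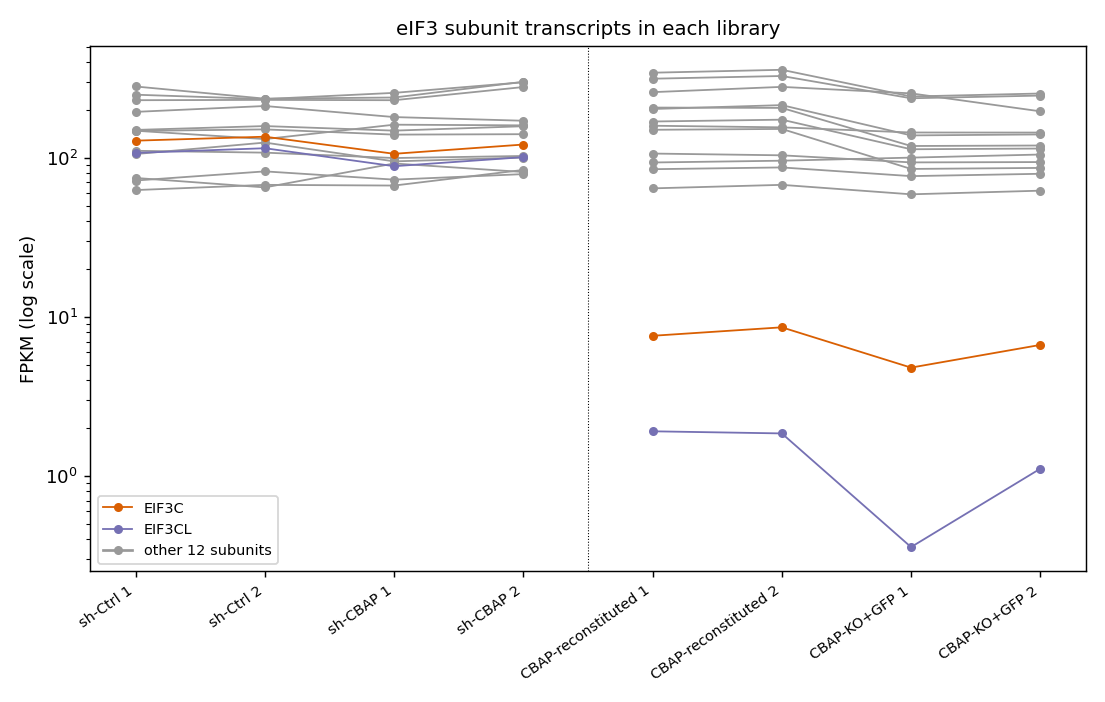
FPKM (log axis) of the 14 eIF3 entries in each library, joined within a set, with EIF3C in orange, EIF3CL in purple and the other 12 subunits in grey. EIF3C and EIF3CL lie among the other subunits in the shRNA set and below 10 FPKM in the CRISPR set, and the other subunits keep between 58.9 and 357 FPKM throughout.

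The factors that act at the mRNA cap moved in different directions. EIF4E, the cap-binding protein, had 14.9 and 18.9 FPKM in sh-Ctrl, 13.0 and 15.3 in sh-CBAP, 10.8 and 10.8 in CBAP-reconstituted, and 9.71 and 11.3 in CBAP-KO+GFP cells. Its libraries overlapped in both sets, and the changes were -0.24 (limma adjusted p = 0.314) and -0.04 (adjusted p = 0.828). EIF4G1, the main scaffold, had 92.4 and 113 in sh-Ctrl, 86.1 and 95.6 in sh-CBAP, 131 and 129.6 in CBAP-reconstituted, and 90.3 and 95.1 in CBAP-KO+GFP cells. It fell in the CRISPR set by 0.49 on the log2 scale (standard error 0.105, limma adjusted p = 0.0119, and 0.0677 without CBAP-reconstituted library 1), and its change in the shRNA set was -0.17 (adjusted p = 0.336). EIF4G3, a second scaffold of the same kind, had 14.5 and 16.0 in sh-Ctrl, 12.9 and 14.4 in sh-CBAP, 20.2 and 19.9 in CBAP-reconstituted, and 27.9 and 27.7 in CBAP-KO+GFP cells. It rose in the CRISPR set by 0.45 (log2, limma adjusted p = 0.00472), and the shRNA change minus the CRISPR change was -0.61 (adjusted p = 0.00956, and 0.052 without CBAP-reconstituted library 2). With quantile normalization the CRISPR change of EIF4G1 was -0.24 (limma adjusted p = 0.0443).

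EIF4G2, a scaffold that lacks the eIF4E-binding region, was called in opposite directions in the 2 sets. Its FPKM was 346 and 395 in sh-Ctrl, 458 and 454 in sh-CBAP, 494 and 488 in CBAP-reconstituted, and 306 and 307 in CBAP-KO+GFP cells. The change was 0.30 (standard error 0.0683, limma adjusted p = 0.0451) in the shRNA set and -0.68 (adjusted p = 0.000829) in the CRISPR set, and the difference was 0.98 (adjusted p = 0.00167). The shRNA call was lost in 7 of 8 fits without 1 library (limma adjusted p of up to 0.119 without CBAP-reconstituted library 2), and the CRISPR call and the difference in none. With quantile normalization the changes were 0.28 (limma adjusted p = 0.0726) and -0.42 (adjusted p = 0.00788). EIF4E3, a cap-binding relative of eIF4E on chr3:71724565-71803924 (minus strand, GRCh37), had 1.91 and 1.97 in sh-Ctrl, 6.60 and 6.84 in sh-CBAP, 1.48 and 1.71 in CBAP-reconstituted, and 1.81 and 1.71 in CBAP-KO+GFP cells. Only the sh-CBAP cells were high, and the change of 1.39 (log2, standard error 0.081, limma adjusted p = 0.000979) differed from that in the CRISPR set by 1.30 (adjusted p = 0.0011). EIF4E2, another relative, which binds the cap in repressor complexes, had 40 and 44.2 in sh-Ctrl, 47.9 and 46.8 in sh-CBAP, 47.9 and 43.1 in CBAP-reconstituted, and 29.9 and 32.3 in CBAP-KO+GFP cells. It fell in the CRISPR set by 0.54 on the log2 scale (limma adjusted p = 0.00333), and the difference from the shRNA set was 0.70 (adjusted p = 0.00758).

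Among the helicases and their partners, EIF4A2 had 140.1 and 136 FPKM in sh-Ctrl, 167 and 205 in sh-CBAP, 165 and 168 in CBAP-reconstituted, and 169 and 174 in CBAP-KO+GFP cells. It rose in the shRNA set by 0.42 (log2, standard error 0.0967, limma adjusted p = 0.0464, and 0.133 without sh-Ctrl library 2), and the CRISPR change was 0.04 (adjusted p = 0.757). EIF4A1, the more abundant helicase, stands in the table only as an entry shared with its neighbour SENP3 and so is no member. That entry had 274 and 302 in sh-Ctrl, 271 and 272 in sh-CBAP, 436 and 439 in CBAP-reconstituted, and 218 and 209 in CBAP-KO+GFP cells, a CRISPR change of -1.03 (limma adjusted p = 0.000125). EIF4B had 98.1 and 78.7 in sh-Ctrl, 104 and 107 in sh-CBAP, 83.2 and 83.9 in CBAP-reconstituted, and 63.3 and 66.1 in CBAP-KO+GFP cells, with changes of 0.26 (limma adjusted p = 0.16) and -0.36 (adjusted p = 0.0305) that differed by 0.62 (adjusted p = 0.0243). Without CBAP-reconstituted library 2 neither of these passed (limma adjusted p = 0.125 and 0.0889), nor did they with quantile normalization (-0.17 with adjusted p = 0.261, and 0.51 with adjusted p = 0.0547). EIF4H had 196 and 188 in sh-Ctrl, 184 and 174 in CBAP-reconstituted, 103 and 105 in CBAP-KO+GFP, and 173 in 1 of the sh-CBAP libraries. The other sh-CBAP library is listed at 0, which widened the spread for EIF4H, and with all 8 libraries it passed in no comparison. In the CRISPR set it was called when that set was fitted alone and when either sh-CBAP library was left out. EIF4A3, a helicase of the exon junction complex and not of initiation, had 87.9 and 95.1 in sh-Ctrl, 78.7 and 82.8 in sh-CBAP, 110.0 and 109 in CBAP-reconstituted, and 71.1 and 65.7 in CBAP-KO+GFP cells. It fell in the CRISPR set by 0.67 on the log2 scale (limma adjusted p = 0.000732).

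The 4E-BPs, which mTORC1 phosphorylates, did not pass in the CRISPR set on the deposited scale. EIF4EBP1 had 61.1 and 54.9 FPKM in sh-Ctrl, 44.1 and 47.5 in sh-CBAP, 48.4 and 51.3 in CBAP-reconstituted, and 52.4 and 52.0 in CBAP-KO+GFP cells. In the shRNA set it fell by 0.33 on the log2 scale (standard error 0.0726, limma adjusted p = 0.0408, and 0.107 without sh-Ctrl library 1), and the CRISPR change was 0.07 (adjusted p = 0.484). EIF4EBP2 had 38.5 and 38.5 in sh-Ctrl, 35.2 and 37.1 in sh-CBAP, 48.8 and 49.2 in CBAP-reconstituted, and 54.4 and 53.6 in CBAP-KO+GFP cells. Its libraries separated in both sets, downward in the first and upward in the second, without passing in either (limma adjusted p = 0.266 and 0.0533), and the difference of -0.23 did pass (adjusted p = 0.0461, and 0.155 without CBAP-reconstituted library 1). EIF4EBP2 passed as higher in the CRISPR set with a pseudocount of 0.1, without the filter on low values, with that set fitted alone, without either sh-CBAP library and with quantile normalization, where EIF4EBP1 passed as well. Transcript levels do not show the phosphorylation of these proteins.

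Of the factors of start codon selection and subunit joining, EIF1B, EIF5B and EIF6 were called lower in the CRISPR set and none in the shRNA set. EIF6, which keeps the large subunit from joining too early, had 92.5 and 101 FPKM in sh-Ctrl, 77.7 and 74.0 in sh-CBAP, 120.3 and 121 in CBAP-reconstituted, and 76.6 and 66.3 in CBAP-KO+GFP cells. The CBAP-deficient libraries were all below the CBAP-expressing ones. The changes were -0.35 (standard error 0.0842, limma adjusted p = 0.0524) and -0.75 (adjusted p = 0.0012). EIF1, EIF1AX, EIF1AD and EIF5 did not pass in either set. Beside EIF5A, its paralog EIF5A2 was scarce, with 2.11 and 1.71 in sh-Ctrl, 2.05 and 2.49 in sh-CBAP, 2.25 and 2.48 in CBAP-reconstituted, and 3.72 and 4.12 in CBAP-KO+GFP cells. It rose in the CRISPR set by 0.55 (log2, limma adjusted p = 0.0115, and 0.0737 without CBAP-reconstituted library 1) where EIF5A fell. EIF5AL1, a copy of EIF5A, ranged from 20.3 to 283 FPKM and differed up to 2.65 (log2) between libraries of 1 condition. Of the 100-base stretches of EIF5A 12.5% are also in EIF5AL1, so the split of reads between them is uncertain. Larger shares lie in other genes for EIF3L (50%), EEF1B2 (35%), EIF6 (19.1%), EIF4E (17.1%), EIF4B (16.6%) and EIF2S2 (15.4%). Their levels are uncertain in the same way.

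EEF2 had the highest mean FPKM of the members, and the other elongation factors ran from EEF1A2, between 1.12 and 6.36 FPKM, to EEF1A1. EEF2, on chr19:3976054-3985461 (minus strand, GRCh37), had 698 and 676 FPKM in sh-Ctrl, 678 and 636 in sh-CBAP, 946 and 957 in CBAP-reconstituted, and 639.7 and 643 in CBAP-KO+GFP cells. The CBAP-reconstituted libraries stood above the other 6, and the change was -0.57 (standard error 0.0498, limma adjusted p = 0.000521) in the CRISPR set and -0.06 (adjusted p = 0.43) in the shRNA set. With quantile normalization the CRISPR change of EEF2 was -0.11 (limma adjusted p = 0.246), and its difference from the shRNA set, 0.50 as deposited, was 0.09 (adjusted p = 0.512). EEF2K, the kinase that inhibits eEF2, had 7.30 and 5.63 in sh-Ctrl, 4.36 and 5.36 in sh-CBAP, 4.28 and 4.30 in CBAP-reconstituted, and 5.90 and 5.63 in CBAP-KO+GFP cells. Its changes of -0.34 and 0.35 did not pass (limma adjusted p = 0.158 and 0.0756), and their difference of -0.70 did (adjusted p = 0.0389, and 0.122 without CBAP-reconstituted library 1).

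EEF1A1 had 330.3 and 296 FPKM in sh-Ctrl, 383 and 310.5 in sh-CBAP, 151 and 146 in CBAP-reconstituted, and 90.1 and 82.9 in CBAP-KO+GFP cells. Its change was -0.77 (standard error 0.115, limma adjusted p = 0.00317) in the CRISPR set and 0.14 (adjusted p = 0.451) in the shRNA set. Of its 100-base stretches 29.5% recur in other genes, mostly the pseudogene EEF1A1P5, so its level is uncertain. EEF1G, the γ subunit of eEF1B, on chr11:62327068-62341558 (minus strand, GRCh37), had 179 and 183 in sh-Ctrl, 95.8 and 96.8 in sh-CBAP, 137 and 139 in CBAP-reconstituted, and 128 and 109 in CBAP-KO+GFP cells. In the shRNA set it fell by 0.91 on the log2 scale (standard error 0.0788, limma adjusted p = 0.0043), more than in the CRISPR set, where the change was -0.23 (adjusted p = 0.0583), and the difference was -0.68 (adjusted p = 0.00793). In GENCODE 95.5% of its 100-base stretches also lie in another annotated gene, so this value too is uncertain. EEF1A2 and EEF1D were called lower in the CRISPR set, and EEF1B2 in neither.

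Many transcripts of the translation machinery start with a C followed by a run of pyrimidines, the 5′ terminal oligopyrimidine motif through which mTORC1 governs their translation. The annotated starts at hand from RefSeq (GRCh38.p14) were searched on the transcribed strand for a C at the first base followed by 4 bases that are each C or T. Not every member had one. EEF1A2, EEF1D, EIF2AK1, EIF2C2, EIF2S2, EIF3A, EIF3CL, EIF3E, EIF3G, EIF3H, EIF3L and EIF4EBP1 were not searched and are in neither group below. EIF1AY was left out as well. Of the 50 tested members with an annotated start, 12 had such a start, against 5.14% of 27305 genes. They were EEF1A1, EEF1B2, EEF2, EIF2A, EIF2D, EIF2S3, EIF3D, EIF3F, EIF3K, EIF3M, EIF4A2 and EIF4B. The windows below, from 10 bases before the start to 20 bases from it, show how far the run extends in 5 of these members and its absence in EIF2B3, with the run in capitals.
EEF2, chr19:3985444-3985473, minus strand: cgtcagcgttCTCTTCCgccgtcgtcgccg
EEF1A1, chr6:73521013-73521042, minus strand: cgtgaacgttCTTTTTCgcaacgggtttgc
EIF3D, chr22:36529147-36529176, minus strand: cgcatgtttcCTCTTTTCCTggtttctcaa
EIF2S3, chrX:24054946-24054975, plus strand: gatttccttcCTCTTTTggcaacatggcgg
EIF4A2, chr3:186783567-186783596, plus strand: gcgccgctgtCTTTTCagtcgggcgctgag
EIF2B3, chr1:44986576-44986605, minus strand: gctgtcagtcagaggcggcgtggagatcgc
In the CRISPR set the median log2 fold change was -0.23 over the 12 members with the run and -0.22 over the 38 without it, and 6 and 16 of them were called lower. In the shRNA set the medians were 0.05 and -0.07, and 0 and 4 of them were called lower. By these medians the members with the run lay near the others. Transcript levels do not show translation, and the part of mTORC1 was not tested. EIF2B3 and EIF5A, called lower in both sets, have no such start among the annotated ones.

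The Argonautes gave values that rest on listed zeros. EIF2C1 (AGO1) was listed at 0 in both CBAP-reconstituted libraries and in 1 sh-Ctrl library, and had 12.3 in the other sh-Ctrl, 10.4 and 12 in sh-CBAP, and 11 and 10.4 FPKM in CBAP-KO+GFP cells. EIF2C4 (AGO4) was listed at 0 in both CBAP-reconstituted libraries and had 6.85 and 5.15 in sh-Ctrl, 5.07 and 4.83 in sh-CBAP, and 9.39 and 9.52 in CBAP-KO+GFP cells. Both passed as higher in the CRISPR set, but a listed 0 can be a failed estimate, and no fold is given. EIF2C2 (AGO2) and EIF2C3 (AGO3) did not pass in either set.

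The changes of 29 of the 63 members, or 46%, differed between the sets, against 33.8% of all tested genes. For 22 of them the shRNA change minus the CRISPR change was positive. Of the 3861 genes called over the whole table, 2087 were negative. Fewer members, and fewer of all tested genes, passed without either CBAP-reconstituted library or CBAP-KO+GFP library 1. Not all of the 29 passed in every fit without 1 library. With the libraries scaled to the same median 39 passed, 34 positive and 5 negative. In that fit 4418 of all genes passed, 1789 of them negative. With quantile normalization 27 members passed, 20 positive and 7 negative, and 3951 of all genes, 1947 of them negative. The members' median difference was 0.34 in the main fit, beside -0.05 over all genes. It was 0.46 with median scaling, beside 0.06 over all genes, and 0.24 with quantile normalization, beside 0.0032. Among the tested members, 28 had a change below 0 in both sets, a count that was not made over all genes. When the 4 CBAP-deficient were compared with the 4 CBAP-expressing libraries across the sets, limma called 0 of 63 members. Of all genes 0.621% passed, 0.411% as lower and 0.21% as higher. At an unadjusted p under 0.05 limma called 14 members, and all genes were not counted at that threshold. With the set as a covariate limma called 5, or 7.94%, against 12.3% of all genes in that fit, and these were EIF2B3, EIF3B, EIF3I, EIF5A and EIF6. In 11 members, or 17.5%, all 4 CBAP-deficient libraries lay below all 4 CBAP-expressing ones, against 10.3% of all tested genes, and the reverse order, seen in 4.67% of all genes, was found in none. These 11 were EEF1G, EIF2AK4, EIF2B3, EIF3B, EIF3D, EIF3I, EIF3K, EIF4A3, EIF4H, EIF5A and EIF6, and for EIF4H the order holds partly through a listed 0.

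**Figure D4:**
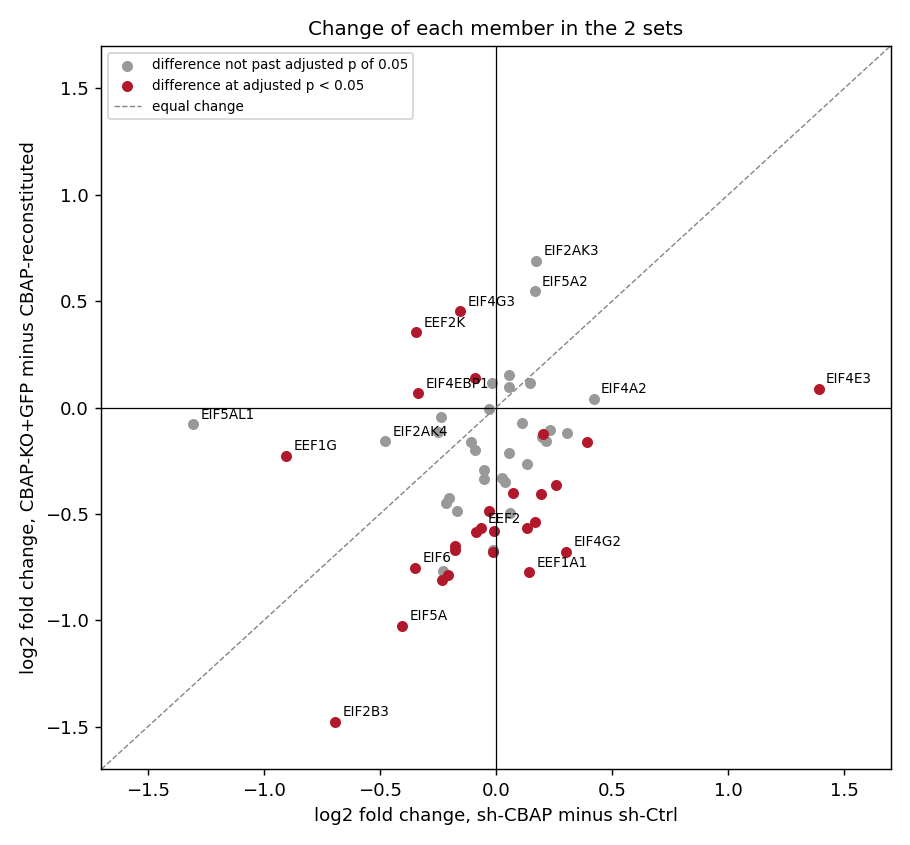
Log2 fold change in the shRNA set (x axis) against that in the CRISPR set (y axis) for the 58 members above 0 in every library, with red points where the difference between the changes passed and the dashed line where the changes are equal. Most red points lie below the dashed line, and EEF1G, EEF2K, EIF4EBP1, EIF4EBP2 and EIF4G3 lie above it.

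Genes that work beside these factors were counted in the same way. Of all tested genes 25.9% were called lower and 23.9% higher in the CRISPR set. In the shRNA set these shares were 8.7% and 3.62%. Of 5 listed release and recycling factors, 3, or 60%, were called lower in the CRISPR set (ABCE1, ETF1 and HBS1L) and none in the shRNA set. ETF1, which recognizes stop codons, changed by -0.64, and HBS1L, which rescues stalled ribosomes, by -0.85. Of 10 mitochondrial translation factors, 5, or 50%, were called lower in the CRISPR set (GFM1, MRRF, MTIF2, TSFM and TUFM). TSFM was called lower also in the shRNA set. Of 23 regulators and partners, 6, or 26.1%, were called lower in the CRISPR set, near the share of all genes. Among them were LARP1, which binds pyrimidine-rich starts (-0.79), and DHPS and DOHH, the enzymes that place hypusine on eIF5A (-0.53 and -0.87). The 4 called higher, or 17.4%, were EEFSEC, PDCD4, an inhibitor of eIF4A (1.20), and PPP1R15A and PPP1R15B, subunits of the phosphatases that act on eIF2α (0.75 and 0.61). In the shRNA set EEFSEC and MKNK2, or 8.7%, were called lower and none of the 23 higher.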

How the data were processed

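RNA-seq of 8 Jurkat libraries was analysed, 2 for each of 4 conditions taken from the labels. Reads, paired and 100 bp long, were mapped by the authors on hg19 in TopHat 2, and cuffdiff of Cufflinks gave FPKM, and the submitters' processing notes also name CASAVA 1.8 and Bowtie. The deposited FPKM values are scaled to transcript length and to mapped fragments, hold no counts and leave the depth unknown, and the annotation is not given in the sources used here. A 0 was read only as a listed 0.

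From these values log2(FPKM + 1) was computed, which understates the change of low genes, keeping the 11427 genes whose mean over the libraries was 1 FPKM or more. limma 3.58.1 (R 4.3.3) was fitted to all 8 libraries with a mean for each condition and empirical Bayes with trend. The tests were two-sided, with p-values adjusted by Benjamini-Hochberg over the whole table and a call at an adjusted p under 0.05. The model gave the change within each set, the difference of the changes and, with 1 mean per class, the comparison of CBAP-deficient and CBAP-expressing cells. The steps were tested on simulated data with 200 changed genes.

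The members named with their values are those past the threshold in either set or in the difference, at most 10 in each direction by size, and EIF4E, EIF4G1, EIF4A1, EIF4B, EIF4EBP1, EIF4EBP2, EIF2S1, EIF2B5, EIF3E, EIF5A, EIF6, EEF1A1, EEF2 and EEF2K. EIF3C, EIF4H and EIF5AL1 were added after their values were seen. The members, lists and tests were chosen with earlier results of these data known. Gene positions came from GENCODE release 44 lifted to GRCh37, where 65 members matched, 4 of them by a synonym. Start windows came from RefSeq (GRCh38.p14), and stretches of 100 bases of each canonical transcript were searched in the transcripts of all other genes with Python 3.11.15. Other pseudocounts, filters, scalings, covariates and single libraries left out were tried as alternatives.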

Additional observations from a re-analysis of the deposited data

Results flagged for a closer look

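Some members changed unequally in the 2 sets by limma's test of the difference, with the log2 change in the CRISPR set subtracted from that in the shRNA set. Among the cap-binding factors the values were 1.30 for EIF4E3, 0.98 for EIF4G2, 0.70 for EIF4E2, 0.62 for EIF4B and -0.61 for EIF4G3, and for the 4E-BPs -0.40 (EIF4EBP1) and -0.23 (EIF4EBP2). For eIF2 and eIF2B they were 0.55 (EIF2A), 0.67 (EIF2S2), 0.46 (EIF2S3), 0.47 (EIF2B1), 0.70 (EIF2B2) and 0.78 (EIF2B3). For eIF3 they were 0.58 (EIF3B), 0.57 (EIF3G), 0.60 (EIF3H), 0.58 (EIF3I), 0.50 (EIF3K) and 0.33 (EIF3L). The remaining values were 0.49 (EIF4A3), 0.62 (EIF5A), 0.41 (EIF6), 0.92 (EEF1A1), 0.48 (EEF1D), -0.68 (EEF1G), 0.50 (EEF2) and -0.70 (EEF2K). Of these, EEF1G, EEF2, EIF2B2, EIF2B3, EIF3G, EIF3I, EIF3K, EIF4E2, EIF4E3 and EIF4G2 passed in all 8 fits that left out 1 library, and with quantile normalization EEF2, EEF2K, EIF3L, EIF4B and EIF6 did not pass.

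In groups of 4 libraries, 3 of 64 examined held a library far from the others by Dixon's criterion, and chance gives about 1 in 20 such groups. EEF2 was at 677.7 FPKM in sh-CBAP 1 among the CBAP-deficient libraries, EIF5A at 379.7 in sh-CBAP 2 among the same libraries, and EIF2C1 at 12.3 in sh-Ctrl 1 among the CBAP-expressing libraries, where the other 3 are listed at 0.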

How the results depend on the processing

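No called change of a named member reversed its direction under the alternatives run. The 8 members called in the shRNA set became 5 without the variance trend and 2 within the set alone, and the 34 in the CRISPR set became 46 within the set alone (73%, against 67.8% of all genes). The comparison of CBAP-deficient with CBAP-expressing cells went from 0 to 5 with the set as a covariate (7.94%, against 12.3% of all genes). With single libraries left out, the shRNA count ran from 2 (without either CBAP-reconstituted library) to 13 (without sh-CBAP 1), with 5 without sh-Ctrl 2 and 3 without either CBAP-KO+GFP library. The CRISPR count ran from 20 to 39, with 21 and 20 without the CBAP-reconstituted libraries, and the count for the difference from 12 to 37, with 13 and 12 without those libraries and 17 without CBAP-KO+GFP 1. The comparison across sets ran from 0 to 1, with EIF2C1 called without sh-Ctrl 1. At the ends of these ranges for the sets and the difference, the count of all tested genes moved in the same direction. The cause of these shifts was not tested. Other pseudocounts, filters and scalings kept the total counts within 1.5 times, but not all counts of higher members, which went in the CRISPR set from 5 to 9 (quantile normalization) and 3 (genes with listed zeros left out) and in the shRNA set from 3 to 5 (median scaling). Quantile normalization moved 7 of 24 called CRISPR changes of named members by over 1.5 times and ended 6.

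With the replicate number as a replicate block, 5 members were called in the shRNA set, 34 in the CRISPR set, 26 in the difference and 0 across the sets. Over all tested genes the counts in the same order were 776, 5362, 3338 and 11, against 1408, 5697, 3861 and 71 in the main fit. The block lost EIF4A2, EIF4EBP1 and EIF4G2 in the shRNA set, EIF2B5 in the CRISPR set, where it gained EIF3C, and EEF2K, EIF4EBP1, EIF4EBP2 and EIF6 in the difference, where it gained EIF2B4. Same-numbered libraries share only a number in the labels, and their deviations from the condition means correlated at 0.146 (shRNA) and 0.0239 (CRISPR). With 2 libraries per condition and unknown depth, small changes could not be resolved.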
